A study of Mus musculus with 12 samples.

Results

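Circadian clock genes were followed across the ligated and unligated carotid arteries of mice given saline or a demethylating drug. The 10 genes, chosen by name, were Clock, Per1, Per2, Per3, Cry1, Cry2, Nr1d1, Nr1d2, Dbp and Bhlhe40. They were represented by 19 of the 45281 probes on the array, 18 of which were detected often enough to be kept, and 9 of the genes were among the 10596 tested. The only gene left out was Cry1, one of the cryptochrome repressors, whose single probe was detected on 0 of 12 arrays, with an intensity of 71.8 to 83.1 as deposited and a lowest detection p-value of 0.338.

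The study hybridised 12 samples to Illumina mouse bead arrays, 3 in each of 4 groups, and each sample pooled RNA from 3 arteries of male C57Bl6 mice labelled 9 weeks old. In the left carotid artery (LCA) 3 of the 4 caudal branches were tied, which leaves low and oscillating flow, and the right carotid artery (RCA) was left alone. The groups were 5Aza LCA, 5Aza RCA, saline LCA and saline RCA, where 5Aza stands for daily intraperitoneal 5-aza-2'-deoxycytidine, an inhibitor of DNA methyltransferases, at 0.2 mg/kg/day for 3 weeks. Both arteries were taken 7 days after the ligation, and the RNA was flushed from the lumen to enrich for endothelial cells. The series set out to find genes sensitive to disturbed flow, to 5Aza or to both. There was no sham-operated left artery, so flow cannot be told apart from surgery or from side, and "flow" below means LCA against RCA. The hour of day at which arteries were taken is not given in the sources used here. The labels do not say that the pools of a group held different mice, so p-values speak only to how far the pools varied, which may be partly technical.

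The molecular clock is a feedback loop. CLOCK and BMAL1, the product of Arntl, bind E-boxes and switch on the Per and Cry repressors, Bhlhe40, the REV-ERB receptors Nr1d1 and Nr1d2, and Dbp, and the PER and CRY proteins then shut CLOCK and BMAL1 down. REV-ERB proteins repress Arntl, DBP acts through D-boxes, and endothelial cells carry a working clock of their own.

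Reference promoter sequence was available for 8 of the 10 genes, all but Per2 and Bhlhe40. It came in 11 windows reaching from 250 bases before to 50 bases after a RefSeq transcript start (RefSeq, GRCm38.p6). These windows were searched on both strands for the E-box CACGTG, the D-box TTATGTAA or TTACGTAA, the nuclear receptor core motif AGGTCA and the cyclic AMP response element TGACGTCA. Windows of Per3, Per1 and Nr1d2 are printed as examples of windows with a match, with every match in capitals. The Per3 window (chr4:151044616-151044915, minus strand) holds 2 D-boxes, the element that DBP binds, 205 and 158 bases before the start. A Per1 window (chr11:69098699-69098998, plus strand) holds an E-box 166 bases before the start and, 137 bases before it, a receptor motif on the other strand. The other Per1 window held no match. The Nr1d2 window (chr14:18239057-18239356, minus strand) holds a receptor motif 77 bases before the start.
Per3 promoter: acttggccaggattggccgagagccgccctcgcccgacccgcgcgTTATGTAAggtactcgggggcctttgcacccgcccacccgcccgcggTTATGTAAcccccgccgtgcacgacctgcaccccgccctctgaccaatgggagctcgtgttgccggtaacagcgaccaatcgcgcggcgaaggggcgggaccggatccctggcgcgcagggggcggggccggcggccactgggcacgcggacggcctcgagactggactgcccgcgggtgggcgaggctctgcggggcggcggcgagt
Per1 promoter: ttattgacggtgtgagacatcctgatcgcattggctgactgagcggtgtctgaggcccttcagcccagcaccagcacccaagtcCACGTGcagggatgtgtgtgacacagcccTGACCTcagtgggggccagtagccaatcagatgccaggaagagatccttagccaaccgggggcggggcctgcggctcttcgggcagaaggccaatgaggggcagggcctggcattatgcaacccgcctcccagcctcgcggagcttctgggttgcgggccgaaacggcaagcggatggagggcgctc
Nr1d2 promoter: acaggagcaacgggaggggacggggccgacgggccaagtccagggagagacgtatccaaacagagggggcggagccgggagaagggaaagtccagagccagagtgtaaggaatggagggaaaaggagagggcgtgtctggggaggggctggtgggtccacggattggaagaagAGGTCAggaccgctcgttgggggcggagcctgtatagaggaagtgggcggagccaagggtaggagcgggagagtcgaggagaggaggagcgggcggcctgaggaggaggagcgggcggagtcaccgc

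Cry1 also had an E-box, 60 bases before its start, and Clock a receptor motif 119 bases before one of its starts. In all, 2 of the 11 windows of these genes held the E-box, 1 a D-box and 3 the receptor motif. Of all 32851 mouse windows of this length, 7.15% held the E-box, 1.06% a D-box of either spelling, 16.3% the receptor motif and 1.79% the cyclic AMP element, which no window of these genes held. A match describes the letters only, and binding was not measured. 5Aza lowers methylation at CpG dinucleotides, so these were counted too. The 11 windows held between 9 and 46 CpG dinucleotides, with a median of 21, against a median of 7 over all windows (quartiles 3 and 20). Methylation itself was not measured on these arrays.

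Values are log2 levels after background correction and quantile normalization, with an added offset that shrinks fold changes of dim genes. A gene's level is that of its brightest kept probe, and log2 fold changes are LCA minus RCA or 5Aza minus saline. Tests are those of limma over all 10596 genes, fitted to all 12 samples, and adjusted p is Benjamini-Hochberg within a comparison, with a threshold of 0.05. Arrays detected 21443 to 23251 probes each, and the number of arrays limits precision. One library stood apart: correlations between samples of a group were 0.856 to 0.971 in saline LCA, with 0.857 and 0.856 for the pairs that include sample 1, and 0.935 to 0.959 in the other groups. Endothelial markers were at mean log2 levels of 8.99 to 9.03 in 5Aza LCA, 9.36 to 9.39 in 5Aza RCA, 8.62 to 8.98 in saline LCA and 9.33 to 9.39 in saline RCA, over the 9 of 10 listed markers that were tested. Kdr, an endothelial growth factor receptor, was detected on no 5Aza array. Results below that rest on saline LCA sample 1 are also given without it.

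Most of the clock's repressor and output genes were lower in the ligated artery. The fold changes of Clock were above 0 but not past the threshold. Without saline RCA sample 4 they were negative under saline and on average, and its probes did not share a direction. In 5Aza-treated mice 1 of the 9 tested genes, Bhlhe40, fell in LCA against RCA, where 0.453% of all genes passed in either direction and 0.217% were lower. In saline-treated mice 5 of the 9 fell, namely Per2, Per3, Cry2, Dbp and Bhlhe40, and 0 rose, where 11.6% of all genes passed and 6.28% were lower. Averaged over both treatments 5 of the 9 fell, namely Per2, Per3, Nr1d2, Dbp and Bhlhe40, where 12.9% of all genes passed and 6.8% were lower. The median log2 fold change of the 9 genes was -0.48 under 5Aza, -1.08 under saline and -0.66 on average, against medians over all genes of -0.02, -0.05 and -0.03. The fold change was negative for 7 of 9 genes under 5Aza, 8 of 9 under saline and 8 of 9 on average, against 52.3%, 54.3% and 53.4% of all genes. The genes were chosen by name with earlier results of these arrays known, so these counts are descriptions. Fewer cells of a type and less RNA per cell cannot be told apart in such bulk RNA.

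These counts depend on single arrays. Without saline LCA sample 1, 2 of the 9 fell under 5Aza, Dbp and Bhlhe40, and 8 under saline, all tested members but Clock. In that fit 2.7% of all genes passed under 5Aza and 29.4% under saline, with 1.24% and 15.7% in that order lower in LCA. Without saline LCA sample 2, or without saline LCA sample 4, 0 of the 9 passed under saline by limma, beside 1.69% and 1.96% of all genes. An unadjusted p below 0.05 by limma was reached by 7 and 6 of the 9 in that order, beside 2198 and 2197 of the 10596 genes. Without saline RCA sample 1, 2 or 4, the number under saline was 2, 2 and 1 in that order, beside 3.15%, 2.66% and 3.69% of all genes. On average flow the number was 6 without saline LCA sample 1, where 29.8% of all genes passed, and 4 without any other single sample, where 5.6% to 9.18% passed.

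The sizes depend on the background correction. With uncorrected intensities the log2 fold change under saline was -1.02 for Per2, -0.88 for Per3, -0.51 for Cry2 and -1.62 for Dbp, smaller than the corrected values given below for each gene. On average flow it was -0.96 for Per2, -0.65 for Per3 and -1.47 for Dbp. Bhlhe40 moved least of these, to -1.35 under 5Aza and -1.20 under saline. Each of these calls passed with uncorrected intensities too (adjusted p 0.00591 to 0.0371 by limma), and the authors' normalized values gave nearly equal sizes.

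**Figure D1:**
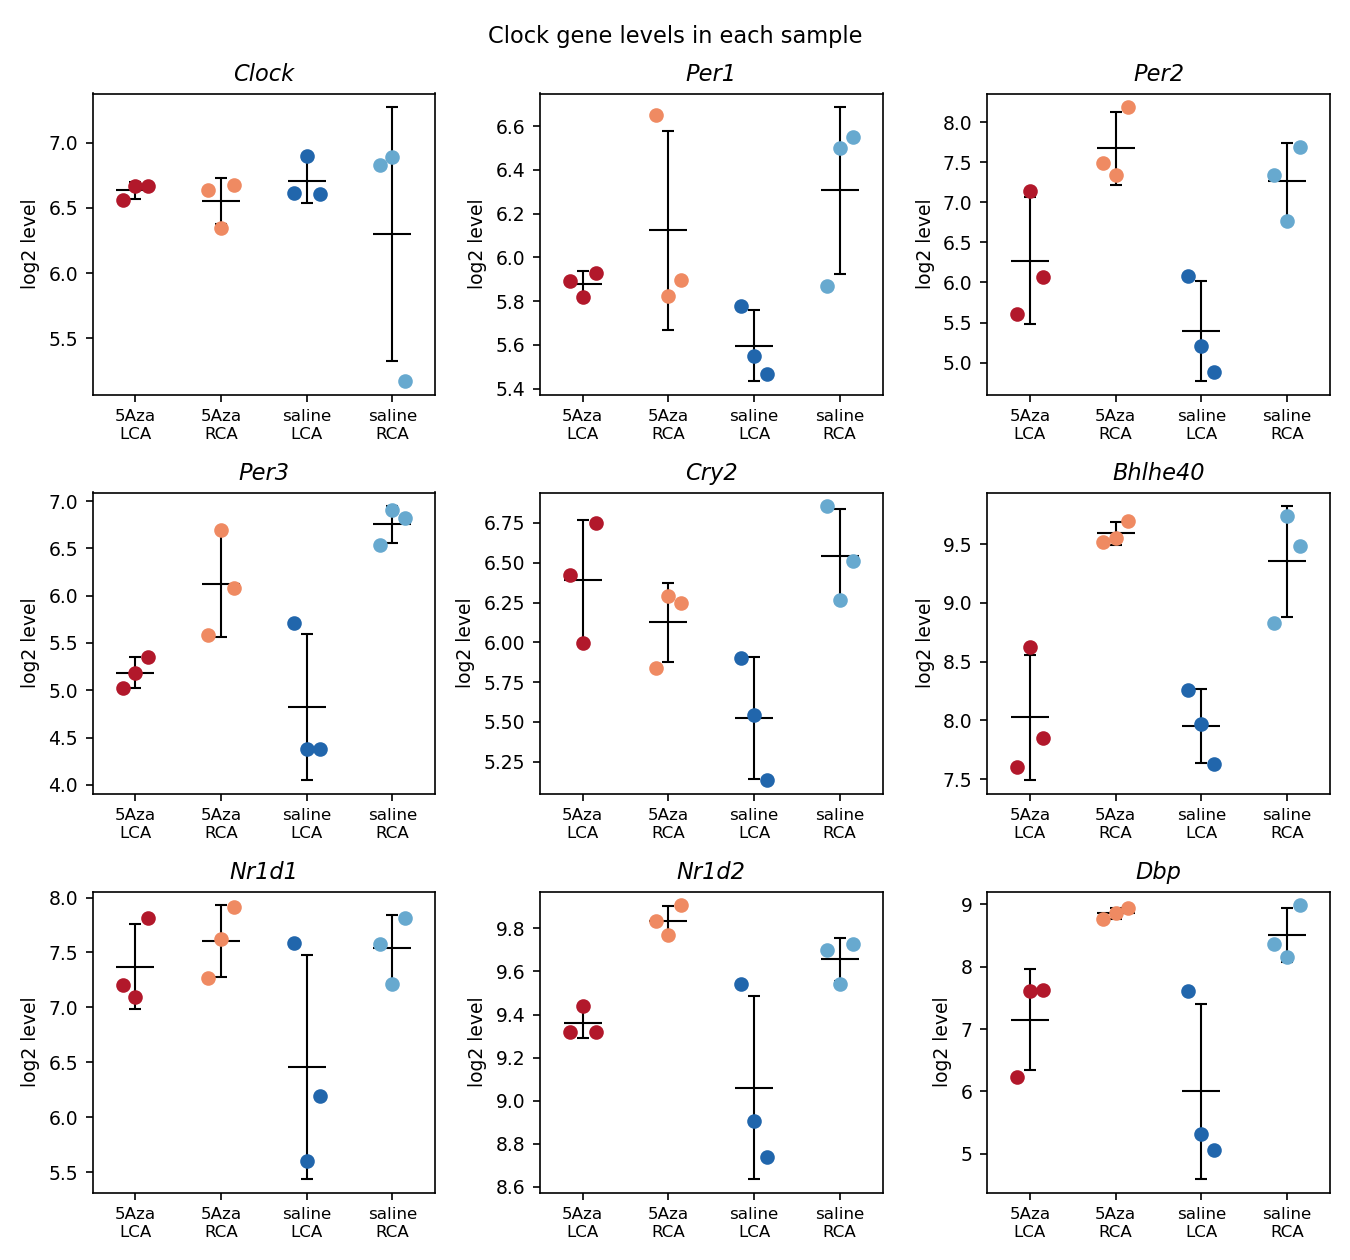
Log2 level (vertical axis) of the 9 tested clock genes in each of the 12 samples, by group (horizontal axis: 5Aza LCA, 5Aza RCA, saline LCA, saline RCA), with a black line for the mean and bars for the SD of 3 samples. Dbp, Bhlhe40 and Nr1d2 sit lower in every LCA sample than in every RCA sample, and Clock overlaps between groups. Saline LCA sample 1, the leftmost point of its group, is the highest of that group for every gene shown but Clock.

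Clock encodes one partner of the activating pair. Its log2 levels were 6.56, 6.67 and 6.67 in 5Aza LCA and 6.63, 6.35 and 6.67 in 5Aza RCA, against 6.61, 6.90 and 6.60 in saline LCA and 6.83, 6.89 and 5.17 in saline RCA. The groups overlapped, and 1 saline RCA sample lay far below the rest. The log2 fold change in LCA was 0.08 under 5Aza (adjusted p = 0.957) and 0.41 under saline (adjusted p = 0.493, 95% interval -0.39 to 1.21), by limma. Without that sample, saline RCA 4, Clock's fold change under saline and on average was negative too. Its other 2 probes gave -0.12 and 0.63 under 5Aza and -0.01 and 0.03 under saline, so the probes did not share a direction.

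Arntl, the other activator, was not past the threshold either. It had 5.94, 5.56 and 5.44 in 5Aza LCA and 5.09, 5.05 and 5.20 in 5Aza RCA, against 5.41, 5.22 and 5.13 in saline LCA and 4.63, 5.47 and 5.45 in saline RCA. All 5Aza LCA samples were above all 5Aza RCA samples, and the saline groups overlapped. Its log2 fold change was 0.53 under 5Aza (adjusted p = 0.39) and 0.07 under saline (adjusted p = 0.871), by limma. Npas2, a paralogue of Clock, was detected on 3 of 12 arrays and was not tested.

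Bhlhe40 encodes DEC1, a basic helix-loop-helix repressor that competes at E-boxes and also answers to hypoxia and other stimuli. Its log2 levels were 7.60, 8.63 and 7.85 in 5Aza LCA and 9.52, 9.56 and 9.70 in 5Aza RCA. In saline mice they were 8.26, 7.97 and 7.63 in LCA and 8.83, 9.74 and 9.49 in RCA. Every LCA sample of either treatment lay below every RCA sample, and samples of one artery overlapped between treatments. Bhlhe40 was 2.96-fold lower in LCA under 5Aza (log2 fold change -1.57, SE 0.30, adjusted p = 0.0483 by limma). Under saline it was 2.64-fold lower (log2 fold change -1.40, SE 0.30, adjusted p = 0.0174 by limma). Averaged over treatments the log2 fold change was -1.48 (SE 0.21, adjusted p = 0.00207), the smallest adjusted p among the 9 genes. Its flow effect under 5Aza minus that under saline was -0.16 (95% interval -1.08 to 0.75, adjusted p = 0.918 by limma). In order of group means, 5Aza RCA (9.59 ± 0.10, SD, n = 3) and saline RCA (9.35 ± 0.47) were highest, and 5Aza LCA (8.03 ± 0.53) and saline LCA (7.95 ± 0.31) lowest, with both neighbouring pairs inside their spread.

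The average effect of Bhlhe40 kept its side of the threshold without any single sample. Its call under 5Aza did not: it was lost without 10 of the 12 samples taken singly, with adjusted p up to 0.174, and held without saline LCA 1 (0.0197) or 5Aza LCA 2 (0.0412). It was also lost with median scaling, either other filter, probes fitted singly, only the groups compared or either fixed replicate block (adjusted p 0.0585 to 0.228). Under saline it was lost without saline LCA 2 or 4 or saline RCA 2 or 4 (adjusted p 0.0575 to 0.084). Bhlhe41, its close paralogue, was detected on 0 of 12 arrays. Ordered by correlation with Bhlhe40 over the 12 samples, the nearest of the 10596 genes were Tpcn1 (r = 0.945), Stx5a (0.942), Tmem255b (0.938), Bgn (0.936) and Zkscan3 (0.927). The most opposite were Depp1 (-0.954), Parvg (-0.914) and Clec2i (-0.909). These points share the 4 groups, so any gene that differs between the arteries gives a high value.

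Per2 and Per3 encode period proteins, which join cryptochromes to repress CLOCK and BMAL1. Per2 had log2 levels of 5.61, 7.15 and 6.07 in 5Aza LCA and 7.49, 7.34 and 8.19 in 5Aza RCA, against 6.09, 5.21 and 4.88 in saline LCA and 7.34, 6.77 and 7.70 in saline RCA. LCA lay below RCA without overlap within each treatment. The log2 fold change of Per2 under 5Aza was -1.40 (SE 0.43, adjusted p = 0.199 by limma). Under saline it was 3.67-fold lower in LCA (log2 fold change -1.88, SE 0.43, adjusted p = 0.0214). On average it was -1.64 (adjusted p = 0.00788), and this held without any single sample. The saline call was lost without saline LCA 2 or 4 or saline RCA 1 or 4 (adjusted p 0.0666 to 0.1). All 3 Per2 probes were lower in LCA, at -1.40, -1.02 and -0.55 under 5Aza and -1.88, -0.93 and -0.49 under saline, from the brightest to the dimmest.

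Per3 had 5.03, 5.19 and 5.35 in 5Aza LCA and 5.59, 6.69 and 6.08 in 5Aza RCA, against 5.71, 4.37 and 4.38 in saline LCA and 6.54, 6.90 and 6.82 in saline RCA. The highest values were in RCA, LCA and RCA did not overlap within a treatment, and saline LCA samples 2 and 4 were the lowest of all. The probe used was detected on 1 of 3 saline LCA arrays and on 3 of 3 in each other group. Under 5Aza the log2 fold change of Per3 was -0.93 (SE 0.36, adjusted p = 0.324 by limma). Under saline Per3 was 3.82-fold lower in LCA (log2 fold change -1.93, SE 0.36, adjusted p = 0.0106), and lost this call without saline LCA 2 or 4 (adjusted p 0.0539 to 0.0561). The average value, -1.43 (adjusted p = 0.00665), held without any single sample. This probe was designed on a cDNA clone. The probe on the reference transcript gave -0.30 under 5Aza and -0.42 under saline, and was detected on 7 of 12 arrays.

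Per1, the period gene that responds fastest to hormones and light, was not past the threshold. It had 5.89, 5.82 and 5.93 in 5Aza LCA and 6.65, 5.83 and 5.90 in 5Aza RCA, against 5.78, 5.55 and 5.46 in saline LCA and 5.87, 6.50 and 6.55 in saline RCA. LCA lay below RCA without overlap under saline and overlapped with it under 5Aza. The log2 fold change was -0.25 under 5Aza (adjusted p = 0.729) and -0.71 under saline (adjusted p = 0.0809), by limma. Its 2 dimmer probes gave -0.08 and -0.42 under 5Aza and -0.98 and -0.69 under saline.

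Cry2, a cryptochrome that holds the activators in repression, fell in LCA under saline. It had 6.42, 6.00 and 6.75 in 5Aza LCA and 5.84, 6.29 and 6.25 in 5Aza RCA, against 5.90, 5.55 and 5.13 in saline LCA and 6.86, 6.27 and 6.51 in saline RCA. The saline LCA samples held 3 of the 4 lowest values, and the arteries overlapped under 5Aza but not under saline. The log2 fold change of Cry2 was 0.26 under 5Aza (SE 0.26, adjusted p = 0.72 by limma). Under saline Cry2 was 2.02-fold lower in LCA (log2 fold change -1.02, SE 0.26, adjusted p = 0.0314). The effect under 5Aza minus that under saline was 1.28 (95% interval 0.48 to 2.09), with an unadjusted p of 0.00475 and an adjusted p of 0.425 by limma. The saline call was lost without saline LCA 2 or 4 or any 1 saline RCA sample (adjusted p 0.0601 to 0.137). A second Cry2 probe, designed on a cDNA clone, gave 0.05 under 5Aza and -0.05 under saline, so the Cry2 result rests on 1 probe, and with the mean of both probes it was -0.54 under saline (adjusted p = 0.15 by limma).

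**Figure D2:**
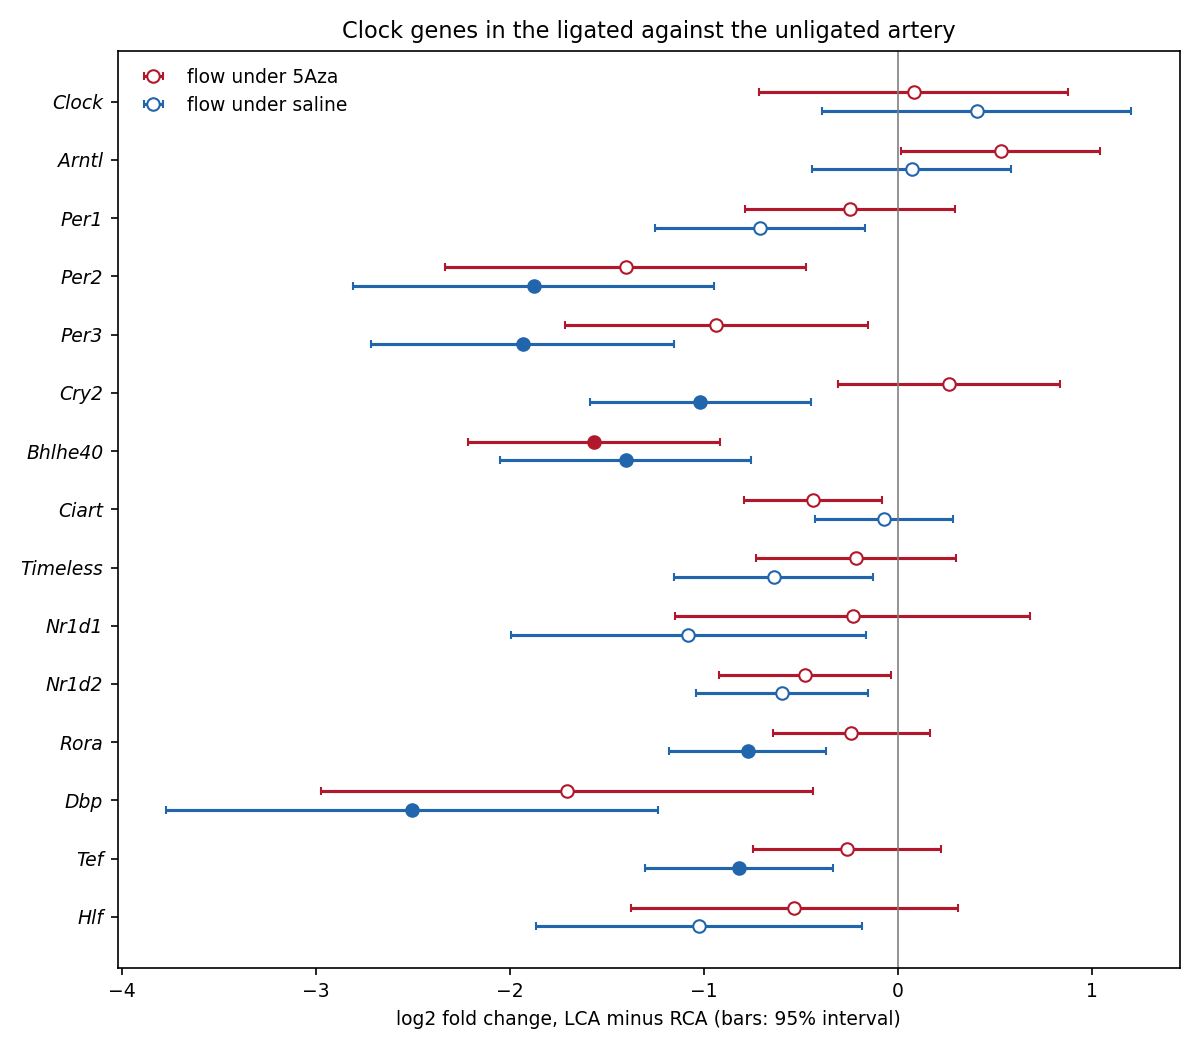
Log2 fold change, LCA minus RCA (horizontal axis), with 95% intervals, for every tested activator, repressor, receptor-loop gene and D-box factor of the clock, under 5Aza (red, upper) and under saline (blue, lower), with filled points where adjusted p was below 0.05. Filled points are all negative, and Clock and Arntl lie at or above 0.

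Nr1d1 and Nr1d2 encode the REV-ERB nuclear receptors, heme-binding repressors of Arntl. Nr1d2 had log2 levels of 9.32, 9.44 and 9.32 in 5Aza LCA and 9.83, 9.77 and 9.91 in 5Aza RCA, against 9.54, 8.90 and 8.74 in saline LCA and 9.70, 9.54 and 9.73 in saline RCA. All LCA samples were below all RCA samples, though saline LCA sample 1 and the lowest RCA sample were both at 9.54. On average over treatments Nr1d2 was 1.45-fold lower in LCA (log2 fold change -0.54, SE 0.14, adjusted p = 0.033 by limma). That call was lost without any 1 of the 11 samples other than saline LCA 1, with adjusted p from 0.0532 to 0.0836, and held without saline LCA 1 (0.000815). Within treatments the values were -0.48 under 5Aza (adjusted p = 0.372) and -0.60 under saline (adjusted p = 0.0745). Its dimmer probe gave larger values, -0.66 under 5Aza and -1.64 under saline.

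Nr1d1 had 7.20, 7.10 and 7.81 in 5Aza LCA and 7.27, 7.63 and 7.92 in 5Aza RCA, against 7.58, 5.60 and 6.19 in saline LCA and 7.58, 7.21 and 7.82 in saline RCA. Saline LCA samples 2 and 4 were the lowest of all, and sample 1 lay among the RCA samples. Its fold change was -0.23 under 5Aza (adjusted p = 0.869) and -1.08 under saline (adjusted p = 0.109), by limma, and neither passed.

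Dbp, a D-box binding activator under direct control of CLOCK and BMAL1, had the lowest fold change of the 9 genes in each treatment. Its log2 levels were 6.22, 7.60 and 7.63 in 5Aza LCA and 8.77, 8.86 and 8.94 in 5Aza RCA. In saline mice they were 7.61, 5.32 and 5.06 in LCA and 8.37, 8.15 and 8.99 in RCA. Each LCA sample was below each RCA sample of either treatment, and saline LCA sample 1 was at the level of the upper 5Aza LCA samples. Under 5Aza the log2 fold change was -1.70 (SE 0.58, adjusted p = 0.259 by limma). Under saline Dbp was 5.67-fold lower in LCA (log2 fold change -2.50, SE 0.58, adjusted p = 0.0231 by limma). Without saline LCA sample 1 the value was -3.31 (adjusted p = 0.000127). Without saline LCA 2 or 4 or any 1 saline RCA sample the call was lost (adjusted p 0.0598 to 0.108). On average the log2 fold change was -2.10 (SE 0.41, adjusted p = 0.0102), which held without any single sample.

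Per2, Nr1d2 and Dbp had the closest profiles. Over the 12 samples Nr1d2 and Dbp correlated at r = 0.962, Per2 and Dbp at 0.939 and Per2 and Nr1d2 at 0.930, while Clock was negative with each of the 8 others (-0.40 to -0.21). Among all genes, the nearest to Per2 were Zfp689 (r = 0.957), Cep63 (0.943), Dbp, Nr1d2 and Pygo2 (0.924), in that order, and Dnase1l3 (-0.961), Ubash3b (-0.943) and Ccl4 (-0.942) were most opposite. Nearest to Per3 were Epb41l4a (0.950), Ptprr (0.949), Camk4 (0.946), Arfip1 (0.946) and Ppm1f (0.943), and most opposite were Hspa8 (-0.950), Igbp1 (-0.947) and 6430548M08Rik (-0.941). These are descriptions over samples that share 4 groups.

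Deviations from the group means remove the difference between groups. For Per2 and Dbp these deviations gave r = 0.76 over 12 samples (exact permutation within groups, two-sided, p = 0.00309, adjusted over 4 pairs 0.0124) and rho = 0.74 (exact p = 0.0409, adjusted 0.156). Without the 2 samples farthest from the median, saline LCA 1 and 4, r was 0.69, and without saline LCA 1, 2 or 4 alone the adjusted p was 0.48, 0.259 and 0.259 in that order. The relation therefore held by r and not by rho, and not without single saline LCA samples. For Nr1d1 and Dbp r was 0.81 (exact p = 0.0617, adjusted 0.123; rho = 0.66, exact p = 0.0779, adjusted 0.156), and r was 0.63 without those 2 samples. For Bhlhe40 and Dbp r was 0.52 (exact p = 0.147, adjusted 0.196; rho = 0.51, exact p = 0.169, adjusted 0.225), and 0.40 without them. Arntl, which peaks opposite to Dbp in a running clock, gave r = 0.05 with it (exact p = 0.89, adjusted 0.89; rho = 0.01, exact p = 0.975, adjusted 0.975), and -0.25 without them.

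**Figure D3:**
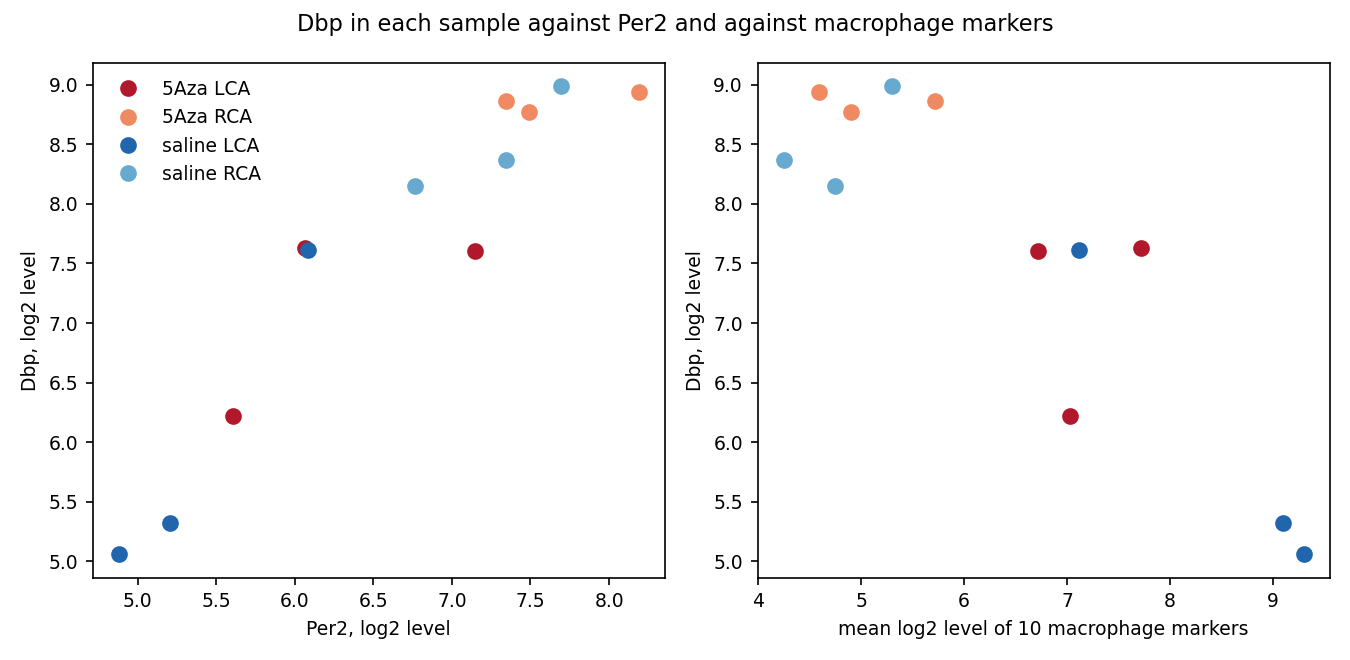
Dbp's log2 level (vertical axis) in each of the 12 samples against the log2 level of Per2 (left) and against the mean log2 level of the 10 tested macrophage markers (right), coloured by group. Dbp is high with Per2 high, and low where the macrophage markers are high, and saline LCA sample 1 lies beside the 5Aza LCA samples in both panels.

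Markers of other cells moved with the artery as well. The 10 tested of 11 macrophage markers had a mean log2 level of 6.72 to 7.72 in 5Aza LCA, 4.59 to 5.72 in 5Aza RCA, 7.12 to 9.30 in saline LCA and 4.24 to 5.30 in saline RCA. In LCA 2 of the 10 rose under 5Aza and 10 of 10 under saline, by limma, where 0.453% and 11.6% of all genes passed. Tyrobp, C1qa, C1qb, C1qc, Csf1r, Ptprc and Adgre1 were detected on all 3 samples of a group only in LCA. The filter thus kept these markers through the artery where they were high. C1qa was detected on no RCA array of either treatment, and C1qb, C1qc and Adgre1 on no saline RCA array. Saline LCA sample 1, with the highest Dbp of its group, had the lowest macrophage level of its group, 7.12 against 9.10 and 9.30. The endothelial level given above was lower in every LCA sample than in every RCA sample. Of its 9 tested markers 1 fell under 5Aza (Icam2) and 3 under saline (Vwf, Tek and Icam2), by limma. The markers did not all share this direction. On average flow 3 fell and 1, Emcn, rose (log2 fold change 0.58, adjusted p = 0.0313 by limma). Under saline the fold change was positive for 2 of the 9, Emcn (0.68) and Cdh5 (0.02). The 2 tested of 3 erythroid markers had 9.20 to 11.1 in 5Aza LCA, 4.56 to 9.42 in 5Aza RCA, 6.54 to 8.77 in saline LCA and 4.26 to 4.82 in saline RCA. Of these, Hba-a1 was kept by the filter only through LCA. The 2 tested of 4 neutrophil markers, S100a9 and Cxcr2, had 4.21 to 5.76 in 5Aza LCA, 4.29 to 4.32 in 5Aza RCA, 5.32 to 7.71 in saline LCA and 4.26 to 4.29 in saline RCA. Both were kept only through saline LCA, the group where they were high, so this level partly follows from that selection.

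Fibroblast and adipocyte markers stood apart between the arteries under 5Aza and overlapped under saline. The 5 fibroblast markers, all tested, had a mean log2 level of 8.17 to 8.52 in 5Aza LCA, 6.68 to 7.53 in 5Aza RCA, 6.84 to 7.91 in saline LCA and 6.53 to 7.50 in saline RCA. By limma 0 of the 5 passed in LCA against RCA under 5Aza, Col1a1 rose and Pi16 fell under saline, and Dcn, Lum and Col1a1 rose on average. The 2 tested of 5 adipocyte markers had 7.31 to 9.30 in 5Aza LCA, 5.69 to 7.09 in 5Aza RCA, 4.75 to 6.09 in saline LCA and 4.76 to 6.47 in saline RCA, and 0 of them passed for flow. Adipoq was higher in 5Aza LCA than in saline LCA, by at least 6.21-fold, since it was not detected on any saline LCA array (adjusted p = 0.0481 by limma). The filter kept Adipoq only through 5Aza LCA, the group where it was high, so this call describes a gene selected by that group. Of 5 tested smooth muscle markers 1, Tagln, rose on average flow, and the 1 tested T cell marker passed in 0 contrasts. The part of these cells in the clock gene differences was not tested.

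**Figure D4:**
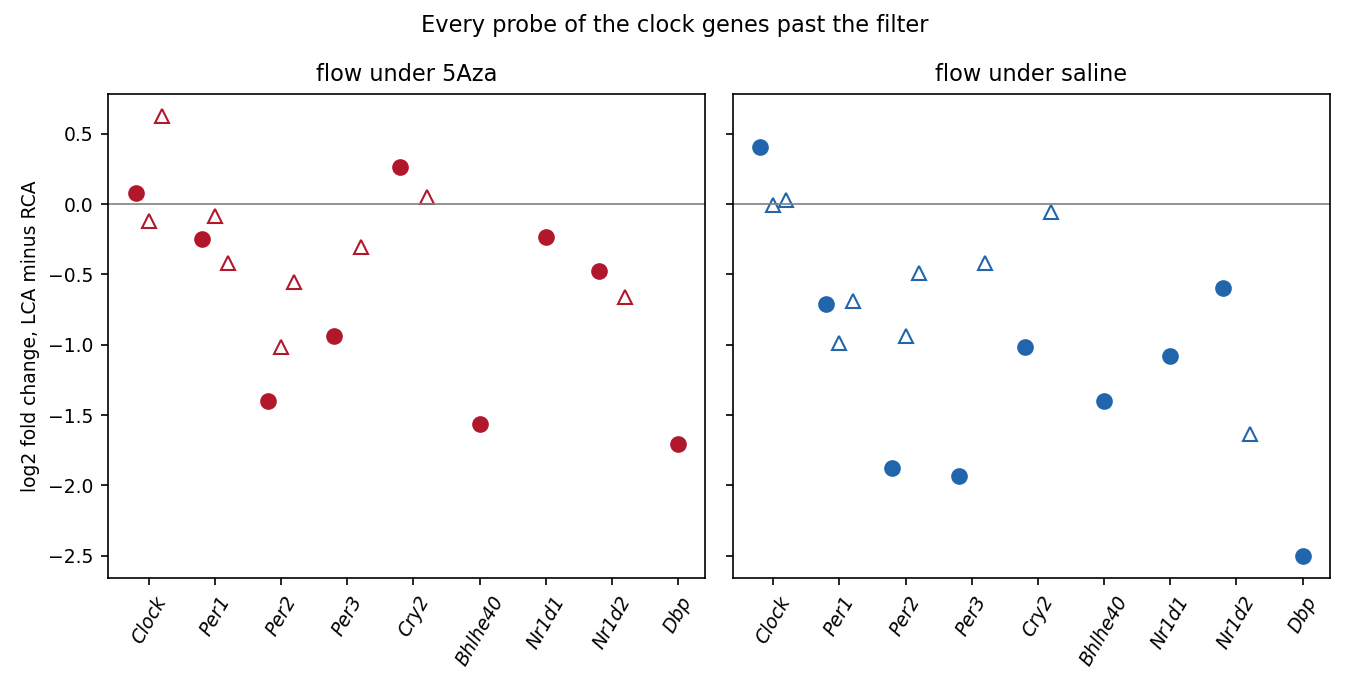
Log2 fold change, LCA minus RCA (vertical axis), of each of the 18 kept probes, by gene (horizontal axis), under 5Aza (left) and under saline (right), with filled circles for the probe that stands for a gene and open triangles for its other probes. Of the 18 probes 14 are below 0 under 5Aza and 16 under saline, and the second probes of Cry2 and Per3 lie nearer to 0 than the first under saline.

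The 5Aza treatment itself changed none of the 9 genes past the threshold. In LCA 0 of 9 passed for 5Aza against saline by limma, where 0.462% of all genes passed. Of the 9, 1 gene, Cry2, had an unadjusted p below 0.05, against 1973 of all genes. In RCA 0 of 9 passed, 0% of all genes passed, and 0 of the 9 had an unadjusted p below 0.05, against 600 of all genes. Averaged over arteries 0 of 9 passed (0% of all genes), with 0 of the 9 at an unadjusted p below 0.05, against 1486 of all genes. In LCA the fold change was positive for 8 of 9 genes, all but Clock, where 45.7% of all genes were negative. The largest values there were 1.15 for Dbp (95% interval -0.12 to 2.42, adjusted p = 0.311) and 0.91 for Nr1d1 (-0.00 to 1.83, adjusted p = 0.268). Per2 had 0.88 (-0.05 to 1.81, adjusted p = 0.291) and Cry2 0.86 (0.29 to 1.43, adjusted p = 0.124). For Per1 and Cry2 every 5Aza LCA sample was above every saline LCA sample, and the other 7 genes overlapped. The share of all genes separated in this way was not counted, so this only describes the samples.

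The flow effect did not differ between treatments past the threshold for any of the 9 genes by limma (0% of all genes passed, 1012 had an unadjusted p below 0.05, and so did 1 of the 9, Cry2). These counts turned on saline LCA sample 1. Without it, Cry2, Nr1d1, Nr1d2 and Dbp were higher in 5Aza LCA than in saline LCA, 4 of the 9 in all, and Nr1d1, Nr1d2 and Dbp were higher with 5Aza averaged over arteries, 3 of the 9. The calls over all genes rose as well, to 19.4% in LCA (10.9% higher with 5Aza) and 11.2% on average (6.45% higher). Without it the flow effect also differed between treatments for Per3, Cry2 and Nr1d1, 3 of the 9, beside 9.58% of all genes. That fit takes the spread of the remaining saline LCA pair from all groups.

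LCA lay below RCA without overlap for 5 of the 9 genes under 5Aza, where this held for 12.2% of all genes, and for 7 of the 9 under saline, where it held for 16.4%. The 5 were Per2, Per3, Nr1d2, Dbp and Bhlhe40, and Per1 and Cry2 joined them under saline. With both treatments together, Nr1d2, Dbp and Bhlhe40 had no LCA sample within the range of RCA. The share of all genes for which this held over both treatments was not counted.

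Beyond these 10 genes, 23 further genes of the clock were listed by role, of which 15 were tested. Under 5Aza 0 of the 15 passed by limma, where 0.453% of all genes passed. Under saline 3 fell, where 11.6% of all genes passed and 6.28% were lower. The medians of the 15 were -0.21 under 5Aza and -0.25 under saline, against -0.02 and -0.05 over all genes. The fold change was negative for 10 of the 15 in each treatment, against 52.3% and 54.3% of all genes. Rora encodes the activating receptor that competes with REV-ERB at Arntl. It had 7.27, 7.42 and 7.01 in 5Aza LCA and 7.28, 7.73 and 7.40 in 5Aza RCA, against 6.54, 6.54 and 6.69 in saline LCA and 7.41, 7.54 and 7.15 in saline RCA. The saline LCA samples lay below all others. Rora's log2 fold change was -0.24 under 5Aza (adjusted p = 0.632) and -0.77 under saline (adjusted p = 0.0258), by limma. Tef, a D-box factor related to Dbp, gave -0.26 under 5Aza (adjusted p = 0.669) and -0.82 under saline (adjusted p = 0.0383). Fbxw11, a ubiquitin ligase subunit that takes part in PER breakdown, gave -0.25 under 5Aza (adjusted p = 0.681) and -0.81 under saline (adjusted p = 0.0398). All 3 saline calls were lost without saline LCA 2 or 4 or saline RCA 1 or 2. Those of Tef and Fbxw11 were also lost without saline RCA 4, 5Aza LCA 2 or 5Aza RCA 3, and that of Fbxw11 without 5Aza RCA 1 or 4, with adjusted p up to 0.163 over all alternatives tried.

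On average flow 12.9% of all genes passed, and 6.8% of all genes were lower. The same 3 genes fell there, Rora by 0.51, Tef by 0.54 and Fbxw11 by 0.53 on the log2 scale. Wdr5, a histone methyltransferase partner found with PER1, rose (0.49, adjusted p = 0.0497 by limma). These average calls of Tef, Fbxw11 and Wdr5 were lost without any 1 of the 11 samples other than saline LCA 1, and that of Rora without 8 of the 12 samples taken singly, with adjusted p up to 0.159 over all alternatives tried. The lists by role hold the 9 clock genes tested above together with the further 15. By role, the median flow effect under 5Aza was -0.44 for repressors, -0.24 for the receptor loop, -0.53 for D-box factors, 0.31 for activators and -0.07 for kinases, ligases and partners. The flow effect under saline was negative for 7 of 7 tested repressors with a median of -1.02, for 3 of 3 genes of the receptor loop (-0.77) and for 3 of 3 D-box factors (-1.02). It was positive for 2 of 2 activators (0.24) and negative for 5 of 9 kinases, ligases and partners (-0.17). Over all genes 54.3% were negative under saline. Rhythmic outputs outside the loop were 5 tested genes. Tsc22d3, a glucocorticoid-induced leucine zipper, was the 1 that passed, under saline and on average, where 11.6% and 12.9% of all genes passed. Its log2 fold change was -0.96 under 5Aza (adjusted p = 0.183), -0.93 under saline (adjusted p = 0.0487 by limma) and -0.94 on average (adjusted p = 0.0124). Its average call held without any single sample, and its saline call was lost without any 1 of the 11 samples other than 5Aza LCA 2 (adjusted p up to 0.151). Rorb, Fbxl21 and Usp2 were detected on too few arrays to be tested, and Nfil3 and Por were not analysed here.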

How the data were processed

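The 12 pooled samples, hybridised to Illumina mouse bead arrays, were put in 4 groups of 3 from the labels and numbered as in their titles. Each probe of each sample has an intensity in the deposited table and beside it a deposited detection p-value, per the file headers. The authors exported them with GenomeStudio 2010.3, per the submitters' processing notes. The authors' deposited table of normalized intensity values served as an alternative only. The series description names 2 microarrays without saying which held which samples, so no batch term was fitted. All sample columns matched the labels, and 0 were left unused.

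In R 4.3.3 with limma 3.58.1, intensities were background-corrected (nec, negative controls inferred from the detection p-values, offset 16), put on log2 and quantile-normalized. Of 45281 probes, the 21979 kept had, in some group, a detection p-value under 0.05 on each of its 3 samples. Gene symbols came from GEO's platform annotation: 34885 probes had 1 symbol, 18 several and 10378 none, and 34807 matched the identifiers of the RefSeq table that updated them. The brightest kept probe stood for a gene. The 4 group means were estimated jointly from the 12 samples and 7 contrasts had two-sided tests, adjusted by Benjamini-Hochberg over all genes of a contrast. The pipeline was tested on simulated data.

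The clock genes, the gene and marker lists and the promoter motifs were chosen with earlier results of these data known. Named were all clock genes with each probe, list members called in at least 1 contrast, Arntl, Npas2, Bhlhe41 and Nfil3, and, for Bhlhe40 and the 2 further members with the smallest adjusted p, the 5 most and 3 least correlated genes. Alternatives covered starting values, background correction, scaling, filter, probes per gene, samples in the fit, variance prior, weights, replicate blocks and leaving out each sample, the last on levels normalized with all 12.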

Additional observations from a re-analysis of the deposited data

How the results depend on the processing

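The number of arrays limits these results, and dim genes have compressed fold changes. Over the alternatives, the genes called by limma gave 656 values, of which 656 kept their direction, 452 passed the threshold again and 204 did not. The average flow effect passed in all 27 alternatives for Per2, Bhlhe40 and Tsc22d3. No alternative other than leaving out saline RCA 4 made the fold change of Clock negative under saline. Under 5Aza it was negative with median scaling, with the titles' numbers as a replicate block, and without 5Aza RCA 3. The cause of each change below was not tested.

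With the titles' numbers as a replicate block, 4 genes and 0 clock genes passed under 5Aza, 276 and 2 under saline (Per2 and Per3), and 295 and 2 on average (Per2 and Bhlhe40). With the descriptions' numbers as a replicate block, 4 genes and 0 clock genes passed under 5Aza, 843 and 5 under saline, and 967 and 4 on average. As a random replicate block (consensus correlation 0.0119) they changed no clock gene's call. Deviations of same-numbered samples correlated at only -0.03 to 0.06. In saline every LCA sample correlated best with the RCA sample of its own number. In 5Aza only LCA sample 1 did so, by either numbering. With correlations this low, and not every sample matched, the numbers were not taken to pair samples.

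Leaving out each sample gave 4 to 286 genes and 0 to 2 clock genes called under 5Aza, 179 to 3114 and 0 to 8 under saline, and 593 to 3161 and 4 to 6 on average. The drug gave 0 to 2054 and 0 to 4 in LCA, 0 to 1 and 0 in RCA, and 0 to 1189 and 0 to 3 on average. The difference between flow effects gave 0 to 1015 and 0 to 3. The highest count in each of these came without saline LCA 1, except in RCA. Array weights gave 157 genes under 5Aza, 3744 genes and 8 clock genes under saline, 3395 and 8 on average, 2258 and 5 for the drug in LCA, 1133 and 2 on average, and 847 and 1 for the difference between flow effects. Group weights gave 123 genes under 5Aza, 16 for the drug in LCA and 1 in RCA. A trended robust prior gave 78 genes under 5Aza, 104 for the drug in LCA, 1 in RCA, 20 on average and 1 for the difference. Without the filter, 0 clock genes passed under 5Aza, 616 genes and 2 clock genes (Per3 and Bhlhe40) under saline, 897 genes on average, 20 for the drug in LCA, 5 on average and 1 for the difference. A stricter filter gave 6 genes and 0 clock genes under 5Aza and 1 gene for the drug in LCA. Fitting probes singly gave 0 clock genes under 5Aza and 2133 probes on average flow. Fitting only the groups compared gave 0 clock genes under 5Aza (5 at an unadjusted p below 0.05), 135 genes and 0 clock genes (7 unadjusted) under saline, and 0 genes for the drug in LCA. How many of all genes had an unadjusted p below 0.05 in those fits was not counted. Median scaling gave 0 clock genes under 5Aza. The authors' values and uncorrected intensities each gave 5 genes for the drug on average. The share of called genes lower in LCA under 5Aza was 47.9%, and 58.6% from the authors' values and 57.9% uncorrected. For the drug in LCA, the share of called genes lower with 5Aza than with saline was 36.7%, and 61.1% with median scaling.

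From the authors' values the deviations of Per2 and Dbp gave r = 0.687 (exact permutation, adjusted p = 0.0524), and those of Arntl and Dbp -0.00514. Leaving out each sample gave 0.693 to 0.835 for Per2, -0.281 to 0.339 for Arntl, 0.376 to 0.897 for Nr1d1 and 0.385 to 0.677 for Bhlhe40.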

Other observations

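Other genes known to share stimuli with the clock gave a mixed picture. Of the 8 listed glucocorticoid-induced genes 7 were tested. Under saline 2 fell and 1 rose in LCA by limma, where 11.6% of all genes passed and 6.28% were lower. Under 5Aza 0 passed, where 0.453% of all genes did. Klf9, a Krüppel-like transcription factor, had log2 levels of 8.04, 8.51 and 8.08 in 5Aza LCA and 8.57, 8.36 and 8.35 in 5Aza RCA, against 8.06, 6.24 and 6.70 in saline LCA and 8.35, 8.67 and 8.46 in saline RCA. Saline LCA samples 2 and 4 were the lowest of all. Its log2 fold change was -0.22 under 5Aza (adjusted p = 0.854) and -1.49 under saline (adjusted p = 0.0274), and the saline call was lost without saline LCA 2 or 4 or any 1 saline RCA sample (adjusted p up to 0.117). Tsc22d3, described above, was the other that fell. Errfi1, a feedback inhibitor of epidermal growth factor receptors, rose, at 0.69 under 5Aza (adjusted p = 0.34) and 1.66 under saline (adjusted p = 0.00676), and this call held without any single sample, with 0.74 under saline from uncorrected intensities. Fkbp5, Sgk1, Dusp1 and Per1 of this list did not pass, with 0.88, -0.14, -0.20 and -0.71 under saline.

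Bhlhe40 is also a hypoxia-induced gene, and of the 12 such genes listed 9 were tested. Bhlhe40 was the only 1 of them past the threshold, by limma, under 5Aza, under saline and on average. Of all genes 0.453%, 11.6% and 12.9% passed in that order, so 1 of 9 is near the share of all genes under saline and on average. The median log2 fold change of the 9 was 0.02 under 5Aza and 0.24 under saline. Vegfa, which encodes an endothelial growth factor, had -0.48 under 5Aza and -0.97 under saline (adjusted p = 0.767 and 0.272), and Car9, a carbonic anhydrase, had 0.41 and 0.87 (adjusted p = 0.637 and 0.0942); both were chosen after their values were seen.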
